A study of Sus scrofa with 8 samples.

Results

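RUNX1, RUNX2, RUNX3, SP7, SOX9, ACAN, ALPL and SPP1 are 8 genes of bone and cartilage, chosen by name from the 28077 genes that the RefSeq annotation of the pig genome (assembly Sscrofa11.1) places on chromosomes 1 to 18 and X, of which 19487 are protein-coding. ChIP-seq peaks over and around them were read in pig embryonic fibroblasts (PEFs). The cells came from 35-day-old Large White fetuses, were released with collagenase, were cultured for 24 h and carried no added gene or treatment. Histone H3 trimethylated at lysine 4 (H3K4me3), histone H3 acetylated at lysine 27 (H3K27ac) and the DNA-binding protein CTCF were each precipitated in 2 replicates, which gives 6 libraries of 1 cell type in 1 condition. No second condition exists against which to test a difference, so every comparison is of levels between genes, regions or libraries, with no p-value. Whether the replicates came from separate fetuses or cultures is not given in the sources used here.

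Bone and cartilage arise from mesenchymal progenitors of the embryo. SOX9 is the transcription factor that commits cells to cartilage and switches on aggrecan (ACAN), the large proteoglycan of cartilage matrix. RUNX2 commits cells to the osteoblast fate and acts upstream of SP7 (osterix), a zinc finger factor of osteoblasts. RUNX1 and RUNX3 are relatives of RUNX2 that bind the same short DNA word and are best known from blood cells, T cells and neurons, with parts in the skeleton as well. ALPL is the tissue-nonspecific alkaline phosphatase that removes pyrophosphate and lets mineral form, and SPP1 (osteopontin) is a secreted phosphoprotein of bone matrix. H3K4me3 marks the starts of genes that are active or ready to be active, H3K27ac marks active starts and enhancers, and CTCF holds chromatin loops and their borders. RUNX genes of mammals have 2 promoters, a distal one at the upstream end and a proximal one far inside the gene, next to the coding exons of the DNA-binding domain.

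The label of the cells was checked against marker genes. All 16 fibroblast markers had H3K4me3 and H3K27ac peaks in both replicates at the transcription start site (TSS), meaning a peak that overlaps the TSS ± 1 kb. Among them were THY1 (H3K4me3 fold enrichment 80.9 and 35.2) and COL5A1 (64.7 and 30.6), and FN1 was lowest (3.13 and 5.38). Beside these and the next counts, 68.9% of protein-coding genes had H3K4me3 and 60.7% had H3K27ac there in both replicates. Of 10 blood cell markers only CD68 had H3K4me3 (87.1 and 35.5), and it also had H3K27ac (41.8 and 53.3). Those without H3K4me3 included PTPRC, SPI1, CSF1R, CD3E, GATA1, ITGAM, TYROBP and LCP2, although SPI1 and TYROBP had H3K27ac. Of 8 osteoclast markers 4 had H3K4me3, namely ITGB3, NFATC1, ACP5 and CALCR, whereas CTSK, OCSTAMP, DCSTAMP and ATP6V0D2 did not. H3K27ac was found in both replicates at ITGB3 (14.6 and 14.7), NFATC1 (15.6 and 15.5) and CTSK (16.1 and 14.6). Of 8 epithelial markers 7 had H3K4me3 but 1, CLDN4, had H3K27ac. Of 6 endothelial markers ERG and KDR had H3K4me3 and PECAM1, CDH5, TEK and TIE1 did not. Only ERG among them had H3K27ac (11.9 and 14.6). The libraries held 37932 and 43516 H3K4me3 peaks, 74983 and 81164 H3K27ac peaks, and 40289 and 44682 CTCF peaks. Fold enrichment is the height of a peak over the control at its summit, as the peak caller wrote it, and it mixes the share of cells that carry a mark with the amount per cell, which cannot be told apart in bulk cells. Its median was 9.27 and 6.16 in the 2 H3K4me3 libraries, so replicate 1 ran higher than replicate 2 in this mark. Where no peak is listed, the signal did not pass the caller, which is not a level of 0.

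H3K4me3 was found at the TSS of 6 of the 8 genes in both replicates, beside 68.9% of protein-coding genes. The exceptions were RUNX3 and SP7, which had no H3K4me3 or H3K27ac peak there in either replicate. H3K27ac was found at the TSS of 3 of 8, RUNX1, RUNX2 and SOX9, beside 60.7% of protein-coding genes. In that order, their levels lay above 39.0%, 29.8% and 41.6% of protein-coding genes with an H3K27ac peak in replicate 1. In replicate 2 the shares were 31.8%, 34.4% and 32.0%, so all were below the median of such genes. CTCF was found at 3 of 8, SP7, ALPL and SPP1, beside 17.9%. The matrix genes and the enzyme, ACAN, ALPL and SPP1, had H3K4me3 without H3K27ac in either replicate, a state of 8.25% of protein-coding genes. Of protein-coding genes, 29.7% had H3K4me3 in neither replicate, as RUNX3 and SP7 did. The other annotated transcript starts of these genes that lie away from the TSS, 29.5 kb into ACAN and 27.6, 32.3 and 38.0 kb into ALPL, had no peak of any of the 3 marks.

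By level of H3K4me3 at the TSS, SOX9 stood first with a mean fold enrichment of 37.8 ± 20.9 (SD, n = 2), followed by RUNX2 with 25.3 ± 3.87 (SD, n = 2) and RUNX1 with 13.6 ± 4.25 (SD, n = 2). ALPL followed with 11.2 ± 4.11 (SD, n = 2), ACAN with 10.2 ± 2.57 (SD, n = 2) and SPP1 with 6.27 ± 0.855 (SD, n = 2). The replicate values of SOX9 and RUNX2 overlapped, as did those of RUNX1 and ALPL and of ALPL and ACAN, so these neighbours were not separated by their spread. RUNX2 lay above RUNX1 in both replicates, and ACAN above SPP1. Apart from SOX9 and, in replicate 2, RUNX2, these levels were low for genes with a peak. RUNX1, ACAN, ALPL and SPP1 lay above only 7.62%, 5.19%, 6.24% and 2.36% of protein-coding genes with a peak in replicate 1, and above 8.76%, 5.89%, 5.77% and 2.95% in replicate 2.

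**Figure D1:**
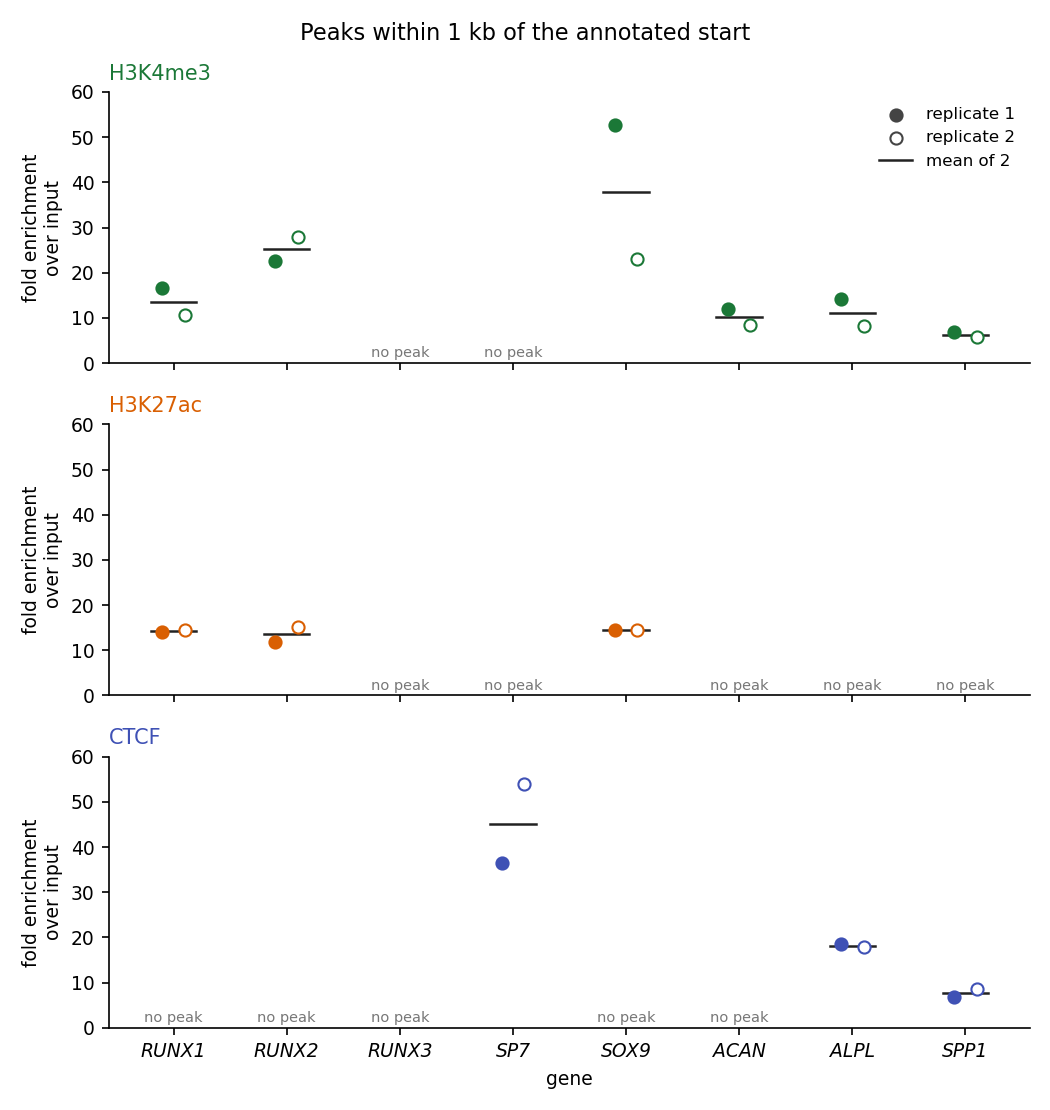
Fold enrichment over input (vertical axis) of the peak within 1 kb of the annotated start of each gene, for H3K4me3, H3K27ac and CTCF; filled points are replicate 1, open points replicate 2 and bars their mean. Mean H3K4me3 is highest at SOX9 (52.6 and 23.1), although RUNX2 is higher in replicate 2 (28.0), H3K27ac is seen at RUNX1, RUNX2 and SOX9 alone, and CTCF is highest at SP7 (36.4 and 53.9).

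RUNX1 (chromosome 13, 198371835 to 198635648, minus strand, 264 kb) had an H3K4me3 fold enrichment of 16.7 and 10.6 at its TSS and an H3K27ac fold enrichment of 14 and 14.5. The stronger mark lay far inside the gene. An H3K4me3 region of 15.9 kb, from 162 to 178 kb downstream of the TSS, reached 53.6 and 38.6, above the start of the gene in both replicates. It was wider than 99.9% of H3K4me3 regions shared by the replicates, held exons 4 and 5 of the 8 exons, which are coding, and also carried H3K27ac (22.0 and 24.0) and CTCF (24.9 and 38.5). No transcript start is annotated within 1 kb of it.

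RUNX2 (chromosome 7, 40106581 to 40353304, plus strand, 247 kb) had an H3K4me3 fold enrichment of 22.6 and 28.0 at its TSS, with H3K27ac at 11.8 and 15.2. It was the only 1 of the 6 members with a peak in which replicate 2 exceeded replicate 1, as it did in 2.0% of the 13423 protein-coding genes with H3K4me3 at the TSS. The region at the TSS was 6.36 kb wide. A second region of 8.22 kb, from 95.8 to 104 kb downstream, had H3K4me3 of 41.8 and 18.1, H3K27ac of 22.3 and 22.4 and CTCF of 12.5 and 15.9, and held the coding exon 3 of 9 exons, again with no annotated start. For H3K4me3 this internal region was the higher of the pair in replicate 1 and the lower in replicate 2, so their order was not fixed by the data, whereas its H3K27ac was higher than that at the TSS in both. A separate region at 54.3 kb (44.6 and 13.5) covers the start of SUPT3H, a gene on the opposite strand whose body runs across the start of RUNX2.

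RUNX3 (chromosome 6, 82531203 to 82595044, minus strand, 63.8 kb) had no peak of any mark at its TSS. It did have an H3K4me3 region of 5.57 kb, from 31.3 to 36.8 kb downstream, with 26 and 13.6, which held the coding exons 3 and 4 of 7. H3K27ac there was weak, at 4.32 and 4.06, near the median of all H3K27ac peaks, and CTCF reached 23.7 and 19.1. The 3 RUNX genes thus shared an internal H3K4me3 region with a CTCF peak in it, and differed in the H3K27ac of that region, which was more than 20 in RUNX1 and RUNX2 and under 5 in RUNX3 in each replicate.

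**Figure D2:**
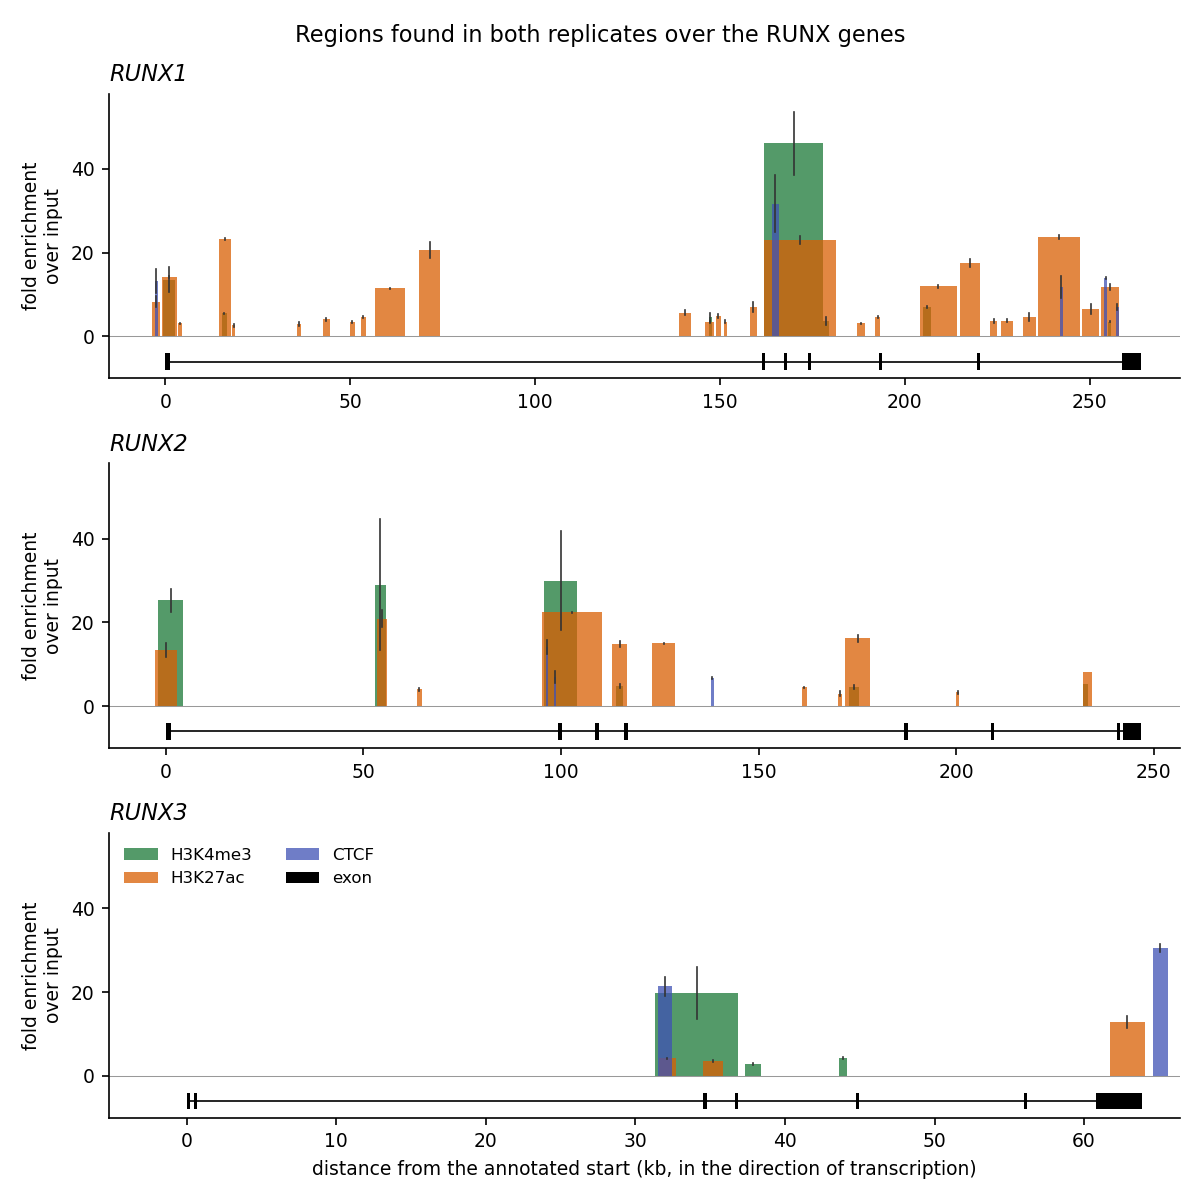
Regions found in both replicates over RUNX1, RUNX2 and RUNX3, by distance from the annotated start in kb (horizontal axis) and mean fold enrichment over input (vertical axis); thin lines join the 2 replicate values and black boxes are exons. Each gene has a green H3K4me3 block away from its start, at 162 to 178 kb, 95.8 to 104 kb and 31.3 to 36.8 kb, and RUNX3 has none at its start.

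The base composition of these places differed. In the 1000 bases around the annotated TSS, the ratio of observed to expected CpG was 0.349 for RUNX1, 0.117 for RUNX2 and 0.538 for RUNX3, below the median of 0.655 over protein-coding genes. Around the replicate 1 summit of the internal region it was 0.685, 0.761 and 0.67. The difference is visible in the bases themselves, shown here for 100 bases before to 50 after the annotated start and for 150 bases around the internal summit, 5′ to 3′ in the direction of the gene, with every CpG in capitals. They were read from the Sscrofa11.1 assembly. The window at the internal summit of RUNX1 overlaps exon 4, that of RUNX2 lies just past exon 3 and that of RUNX3 lies in the intron before exon 3. These windows follow the replicate 1 summits. The replicate 2 summit lay outside the window in RUNX1 (198466374) and RUNX3 (82562733) and inside it in RUNX2 (40206863).
RUNX1 annotated start (chr13:198635599-198635748, minus strand): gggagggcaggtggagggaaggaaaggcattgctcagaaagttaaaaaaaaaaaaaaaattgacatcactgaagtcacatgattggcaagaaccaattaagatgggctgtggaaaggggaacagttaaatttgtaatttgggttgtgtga
RUNX1 internal summit (chr13:198468088-198468237, minus strand): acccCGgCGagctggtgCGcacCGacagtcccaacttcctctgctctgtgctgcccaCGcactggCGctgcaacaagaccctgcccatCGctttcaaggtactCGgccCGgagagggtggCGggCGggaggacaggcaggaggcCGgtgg
RUNX2 annotated start (chr7:40106481-40106630, plus strand): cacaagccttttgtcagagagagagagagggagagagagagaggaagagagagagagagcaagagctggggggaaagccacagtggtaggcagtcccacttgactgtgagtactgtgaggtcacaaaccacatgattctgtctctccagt
RUNX2 internal summit (chr7:40206736-40206885, plus strand): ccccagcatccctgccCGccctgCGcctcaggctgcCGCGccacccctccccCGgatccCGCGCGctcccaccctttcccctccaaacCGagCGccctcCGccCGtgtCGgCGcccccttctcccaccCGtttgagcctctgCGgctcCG
RUNX3 annotated start (chr6:82594995-82595144, minus strand): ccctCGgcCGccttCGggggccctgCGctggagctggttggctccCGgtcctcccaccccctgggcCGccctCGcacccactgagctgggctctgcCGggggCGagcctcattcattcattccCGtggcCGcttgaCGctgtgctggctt
RUNX3 internal summit (chr6:82562822-82562971, minus strand): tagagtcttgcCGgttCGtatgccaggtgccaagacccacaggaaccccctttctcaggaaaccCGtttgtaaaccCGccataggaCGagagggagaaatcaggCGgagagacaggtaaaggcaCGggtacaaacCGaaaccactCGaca
RUNX1 and RUNX2 had 0 CpG in the window at the annotated start and 12 and 17 in the internal window. RUNX3 went the other way over this short window, with 12 and 9, although its 1000-base ratio was higher at the internal summit.

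SP7 (chromosome 5, 18541368 to 18566668, minus strand, 25.3 kb) resembled RUNX3 in having no H3K4me3 at its TSS and strong H3K4me3 inside. Regions at 6.12 kb (29.1 and 18.7), 16.1 kb (22.9 and 10.8) and 24.4 kb (54.4 and 23.4) from the TSS had fold enrichments over 10 in both replicates. All carried H3K27ac, at 10.4 and 14.5, 6.76 and 9.55, and 14.6 and 16.5 in that order. The region at 6.12 kb lies in intron 2, that at 16.1 kb covers exons 3 and 4 of 5, and that at 24.4 kb covers the end of the gene, in the non-coding part of exon 5; the next gene, AAAS, starts at 28.8 kb and had H3K4me3 of 71.8 and 38.6. The annotated start of SP7 lies in repeat sequence, since 97.0% of the 300 bases from 250 before to 50 after it are soft-masked in the assembly, against between 10.7% and 36.7% in the other 7 genes.

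CTCF was the only mark at the TSS of SP7, with 36.4 and 53.9, higher than in 89.8% and 96.5% of protein-coding genes with a CTCF peak at the TSS in each replicate. Its summit lay 652 and 641 bp past the start, in intron 1, at a match to the CTCF core CCNNNAGGNGGC, printed here with 14 bases on each side and the core in capitals because it is the strongest TSS site of the set.
SP7 CTCF site (chr5:18565994-18566033, plus strand): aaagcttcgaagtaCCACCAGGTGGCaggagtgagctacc
The core runs opposite to the direction of SP7.

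SOX9 (chromosome 12, 8642154 to 8647315, minus strand, 5.16 kb) had the broadest start of the 8 genes. Its H3K4me3 region of 9.29 kb, wider than 99.2% of shared regions, ran from -4.75 to 4.54 kb around the TSS and so covered most of the gene, with 52.6 and 23.1. H3K27ac was 14.6 in both replicates at the TSS, and a further H3K27ac region of 12.3 and 12.8 began just 1.01 kb past it and covered exons 2 and 3. A CTCF peak of 36.0 and 38.2 lay at -2.57 kb inside the H3K4me3 region, outside the limit of 1 kb. With 0.817, the CpG ratio around the SOX9 TSS was far above that of the RUNX genes.

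ACAN (chromosome 7, 54449830 to 54520606, plus strand, 70.8 kb) had H3K4me3 of 12 and 8.38 at its TSS and no H3K27ac or CTCF. A narrow region of 0.66 kb in intron 1, at 9.43 kb, carried H3K4me3 (13.2 and 9.6), H3K27ac (5.33 and 8.44) and the strongest CTCF peak in the gene (41.3 and 55.2). Another CTCF peak at 26.8 kb had 32.5 and 29.1. Its neighbour HAPLN3, which encodes a link protein of the kind that ties hyaluronan to proteoglycans, had H3K4me3 of 30.8 and 11.9 and H3K27ac of 5.54 and 6.79 at its TSS.

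ALPL (chromosome 6, 79589695 to 79649646, plus strand, 60 kb) had H3K4me3 of 14.1 and 8.27 and CTCF of 18.5 and 17.8 at its TSS. The CpG ratio there was 0.827, and that of ACAN was 0.776. Among protein-coding genes with a ratio of 0.6 or more, 97.2% had H3K4me3 at the TSS, with a median of 54.5 and 26.3 over those with the mark, so that both genes had the mark as such genes do but well under the median level. The CTCF summits lay at -109 and -111 bp, and a CTCF core begins at base -95 of the promoter. Such a core was found in 5.54% of protein-coding promoters. RUNX3 also had a core, at base -94, but no CTCF peak at its TSS. The ALPL promoter is shown because the mark and the motif fall together there. Its core is in capitals, in 250 bases before to 50 after the start.
ALPL promoter (chr6:79589445-79589744, plus strand): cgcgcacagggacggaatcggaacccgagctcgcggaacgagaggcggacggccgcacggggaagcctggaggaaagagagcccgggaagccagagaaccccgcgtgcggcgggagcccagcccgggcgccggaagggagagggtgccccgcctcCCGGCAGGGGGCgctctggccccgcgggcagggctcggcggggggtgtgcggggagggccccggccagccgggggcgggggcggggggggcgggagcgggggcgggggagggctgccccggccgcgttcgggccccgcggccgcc
No H3K27ac region lay in the body of ALPL. A region at -59.1 kb had H3K4me3 of 72.4 and 26.8, above the TSS of ALPL in both replicates, with H3K27ac of 10.9 and 15.0, and no gene or transcript start is annotated there.

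SPP1 (chromosome 8, 131077786 to 131085334, minus strand, 7.55 kb) had the lowest H3K4me3 at a TSS, 6.88 and 5.67, with CTCF of 6.73 and 8.52. Its stronger marks lay just outside the limit of 1 kb. Regions centred at -2.35, -2.56 and -2.15 kb had H3K4me3 of 22.9 and 14.1, H3K27ac of 7.63 and 7.06 and CTCF of 32.3 and 31.4, so H3K4me3 and CTCF were higher there than at the TSS in both replicates and H3K27ac, absent from the list at the TSS, had a peak. The upstream neighbours MEPE and IBSP, which belong like SPP1 to the SIBLING family of secreted bone proteins, had no peak of any mark at TSSs at -113 and -137 kb. PKD2, the next gene on the other side and outside that family, had H3K4me3 of 59.8 and 24.0.

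Counted over the gene bodies, 5 of 8 genes (RUNX1, RUNX2, RUNX3, SP7 and ACAN) had a shared H3K4me3 region over 1 kb from every annotated start, beside 24.2% of protein-coding genes. With at least 10 in both replicates, a limit chosen after the values were seen, 4 of 8 remained (RUNX1, RUNX2, RUNX3 and SP7), beside 6.72%. ACAN lay just under the limit with 9.6 in replicate 2. Longer genes have more room for such regions and most of these are long against a median of 20.7 kb. Among protein-coding genes of 25 kb or more, a length also chosen after the values were seen, the share was 10%, beside 4 of the 6 members of that length.

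The wider programmes of bone and cartilage were compared by lists. Of 30 osteoblast genes, 21 had H3K4me3 at the TSS in both replicates and 17 had H3K27ac. The highest were the transcription factors MSX2 (74.6 and 40.9), TWIST1 (61.8 and 48.2) and ATF4 (63.4 and 30.2). The lowest were TNFRSF11B, the decoy receptor osteoprotegerin (17.5 and 12.6), OMD (9.55 and 18.9) and MGP, an inhibitor of calcification (5.24 and 5.64). Those with no H3K4me3 peak at the TSS in either replicate included BGLAP, IBSP, DMP1, MEPE, PHEX, SOST and PTH1R. BGLAP and IBSP are matrix proteins of mature osteoblasts, and DMP1, MEPE, PHEX and SOST are known from osteocytes. SPARC had H3K4me3 in 1 replicate only (3.68) but H3K27ac of 27.7 and 49.7.

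Of the 29 cartilage genes found in the annotation (SNORC was not matched), 20 had H3K4me3 in both replicates and 10 had H3K27ac. SOX5 (67.2 and 37.4) and SOX6 (47.3 and 33.5), the partners of SOX9, led with WWP2 (64.9 and 15.2). COL11A2 (13.7 and 6.41), CHAD (12.5 and 4.45) and CNMD (6.83 and 7.64) were lowest. COL9A1, COL10A1, MATN1, PRG4, EPYC, CILP, UCMA, TRPS1 and SCRG1 had no H3K4me3 peak at the TSS in either replicate. When any annotated transcript start was used, 22 cartilage genes had H3K4me3 in both replicates, so some of these had it at another start. The median H3K4me3 over the cartilage list was 19.9 and 8.88, under the 39.2 and 19.5 of all protein-coding genes, and that over the osteoblast list was 38.4 and 20.5, close to it. COL1A1, COL1A2 and TWIST1 stand in both the osteoblast and the fibroblast list, whose medians were 44.8 and 28.6. The share of H3K4me3 among all protein-coding genes (68.9%) is close to the share in both lists. For H3K27ac, the share among all protein-coding genes (60.7%) stands beside 17 of 30 osteoblast genes and 10 of 29 cartilage genes, and 4 more cartilage genes had H3K27ac in 1 replicate.

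**Figure D3:**
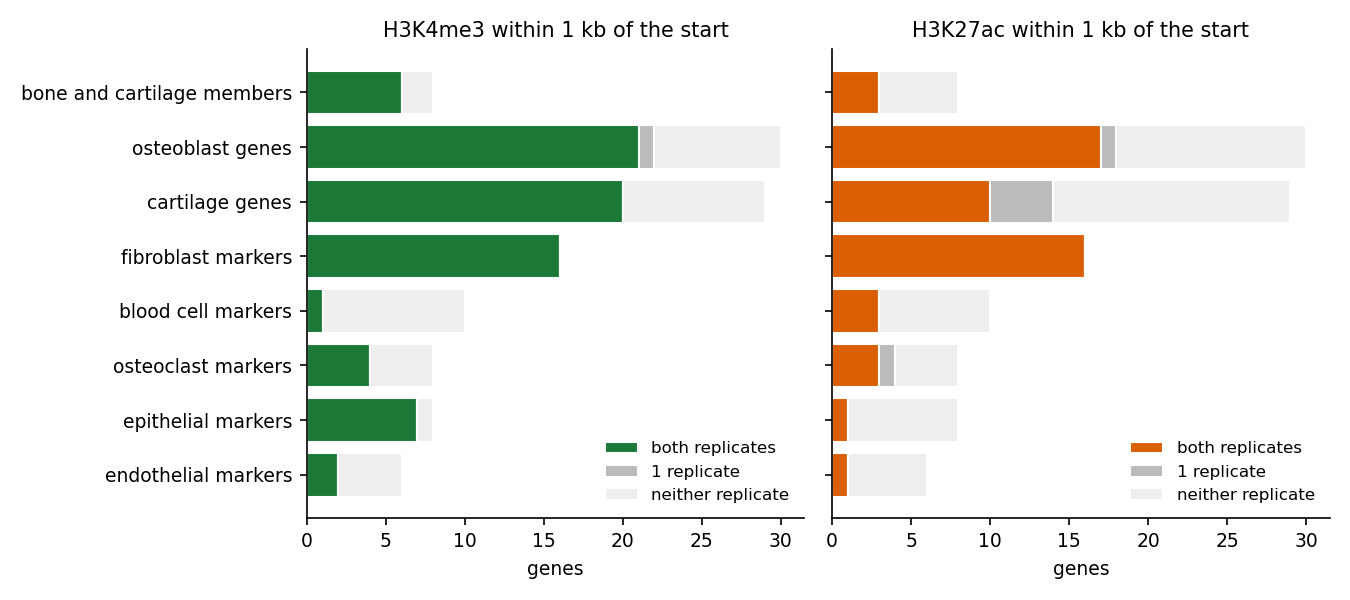
Number of genes (horizontal axis) with a peak within 1 kb of the annotated start in both replicates, in 1 or in neither, for H3K4me3 (left) and H3K27ac (right) in each gene list. H3K4me3 is found in 21 of 30 osteoblast and 20 of 29 cartilage genes, and H3K27ac in 17 and 10, while all 16 fibroblast markers have both.

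Distal H3K27ac regions, those over 1 kb from every annotated start whose midpoint lies within 200 kb of the TSS, numbered 135 around the 8 genes. RUNX1 had 30, more than 98.4% of protein-coding genes. SPP1 had 21, RUNX3 20, SP7 19, ALPL 14, RUNX2 and ACAN 11 each and SOX9 9, beside a median of 9 and quartiles of 4 and 14. Other genes share these windows, with 20 other TSSs around SP7 and between 2 and 7 around the rest, and which gene a region serves was not tested. In RUNX1, 17 of the 30 lay inside the gene, the highest of them at 16.1 kb (23.5 and 23.0), 172 kb (22.0 and 24.0) and 71.5 kb (22.6 and 18.7). RUNX1 is longer than the window, and a region at 241 kb (24.3 and 23.2), also inside the gene, is not in the count. Of the 135 regions, 27.4% overlapped H3K4me3 and 17.8% CTCF, beside 25.2% and 12.4% of all 47814 distal regions, and their median fold enrichment was 4.59 beside 4.94.

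**Figure D4:**
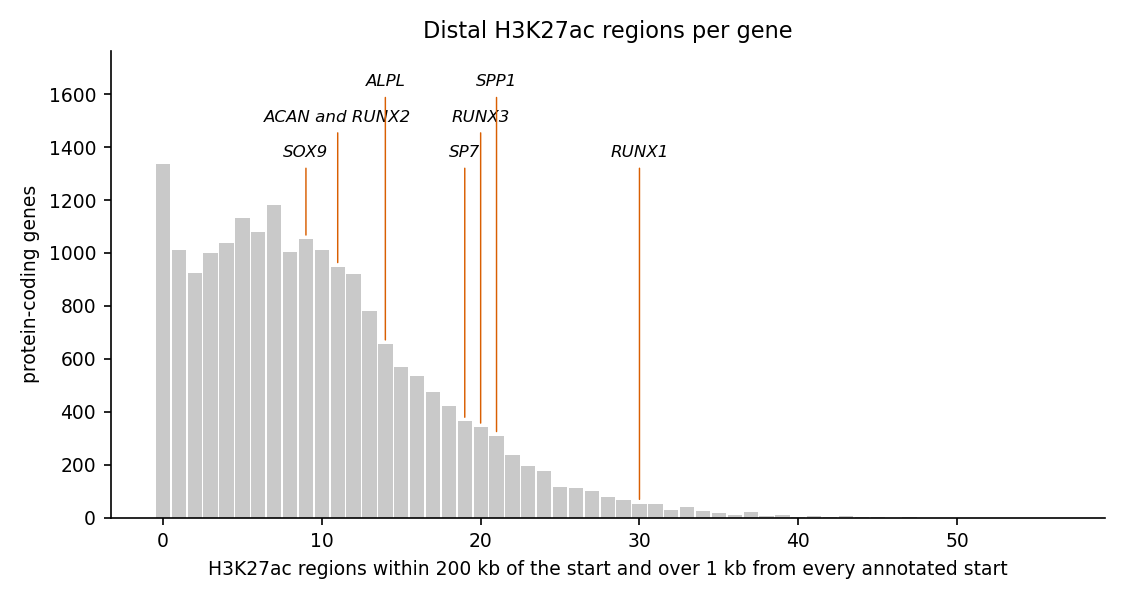
Number of protein-coding genes (vertical axis) by the number of distal H3K27ac regions within 200 kb of the annotated start (horizontal axis), with the bone and cartilage genes marked. RUNX1 with 30 lies in the upper tail and SOX9 with 9 at the median.

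Around RUNX2, 8 of the 11 distal regions lay within the gene. The highest was the 15.2-kb region at 103 kb (22.3 and 22.4) that contains the internal H3K4me3 region. Regions at 175 kb (15.4 and 17.0), 126 kb (14.8 and 15.2) and 115 kb (14.1 and 15.5) followed, all within RUNX2, and the one at 126 kb had no H3K4me3. The fifth, at -141 kb (9.93 and 10), lies within SUPT3H. The regions at 103, 175, 126 and 115 kb exceeded the H3K27ac of the RUNX2 TSS in replicate 1 (11.8). In replicate 2 the TSS had 15.2, which those at 103 and 175 kb exceeded, while those at 126 and 115 kb were about equal to it.

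Around SOX9, the region 1.01 kb past the TSS was highest (12.3 and 12.8), and it belongs to the marked start. The highest away from the gene lay at -135 kb, with 9.71 and 12, and overlapped a weak CTCF peak (7.06 and 5.36). Regions at -73.5 kb (6.29 and 5.43), 153 kb (5.22 and 5.6) and -199 kb (5.03 and 4.7) were near the median of distal regions. The 3 other genes whose TSS lies in the window are lncRNAs without a peak there. A transcript start of a further gene, LOC102165318, lies within 1 kb of an H3K27ac region at 185 kb (5.65 and 5.74), which is therefore not counted as distal. Among the 5 highest distal regions of RUNX2 and of SOX9, only that at -135 kb held a RUNX or SOX motif in the 60 bases at its summit. These bases are shown because they hold both motifs next to each other, in capitals.
SOX9 region at -135 kb (chr12:8782082-8782141, plus strand): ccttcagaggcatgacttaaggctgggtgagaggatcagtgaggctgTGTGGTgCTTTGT

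**Figure D5:**
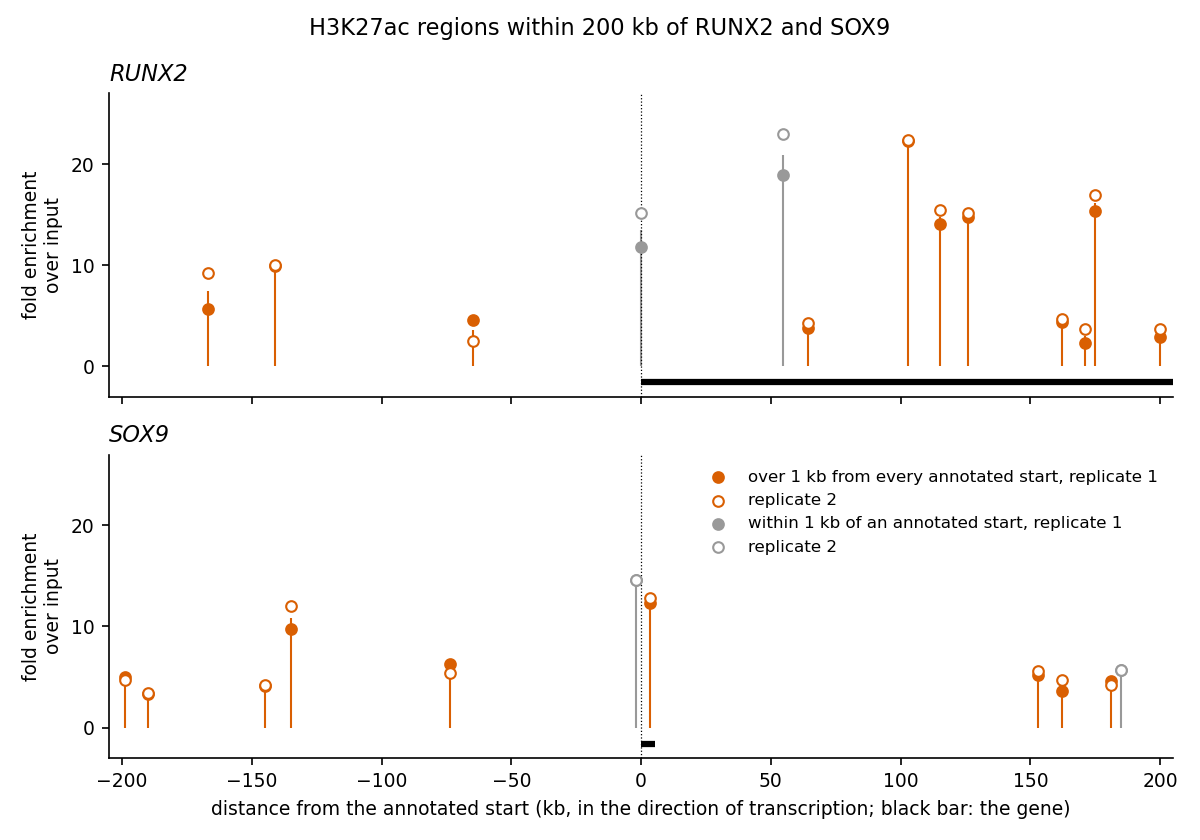
Fold enrichment over input (vertical axis) of H3K27ac regions within 200 kb of the annotated starts of RUNX2 and SOX9, by distance in kb (horizontal axis); filled points are replicate 1, open points replicate 2, stems reach their mean, and grey marks regions within 1 kb of an annotated start. The RUNX2 regions above 14 lie inside the gene, and around SOX9 the one at -135 kb is highest away from the gene.

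Around RUNX3, ACAN, SPP1, SP7 and ALPL the highest distal regions lay outside the gene. They were at 177 kb from RUNX3, within CLIC4 (33.6 and 31.2), at 184 kb from ACAN (30.4 and 29.8), at 54.1 kb from SPP1, within PKD2 (22.0 and 22.3), at 193 kb from SP7 (18.3 and 20.6) and at -59.3 kb from ALPL (10.9 and 15.0). The regions of RUNX3 and ACAN exceeded 99.5% and 99.2% of all distal regions.

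CTCF regions within 200 kb numbered 89 in all. SP7 had 24, ACAN 16, ALPL 15, SPP1 14, RUNX3 10, RUNX2 and SOX9 4 each and RUNX1 2, beside a median of 9. RUNX1, with the most H3K27ac regions, had the fewest CTCF regions, and 3.65% of protein-coding genes had less. A further 3 CTCF regions, at 242, 254 and 257 kb, lie inside RUNX1 beyond the window and are not in its count. The strict CTCF core was found within 150 bp of the summit in 24 of the 89 (27%), beside 24.0% of all CTCF regions and 1.6% of distal H3K27ac regions. A looser core, CCNNNAGNNGGC, chosen after the share of the strict core was seen, was found in 35 (39.3%) beside 41.2%. Within 100 bp of a summit, none of the 4 CTCF regions around RUNX2 had either core, and the internal CTCF peak of RUNX1 at 164 kb had only the looser one, printed below with 14 bases on each side.
RUNX1 internal CTCF site (chr13:198471619-198471658, minus strand): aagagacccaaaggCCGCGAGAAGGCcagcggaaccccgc

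Binding words of the factors that these genes encode were searched in 300-base windows on both strands. The RUNX word TGTGGT was found in 36 of the 135 distal regions (26.7%) beside 23.1% of all distal regions. The SOX words ACAATG and ACAAAG were found in 26.7% beside 34.3%, and the AP-1 word TGANTCA, bound by FOS and JUN proteins, in 17.8% beside 13.3%. The region at 175 kb in RUNX2 held 3 RUNX words. These short words occur often, and a match is not a site of binding.

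Among promoters, read from 250 bases before to 50 after the TSS, RUNX words were found in those of RUNX2, RUNX3 and SPP1, beside 16.1% of protein-coding promoters. That of RUNX2 held 2 RUNX words, at base -102 and at base 26, and 1 AP-1 word, and that of RUNX1 held an AP-1 word as well, beside 6.08% of promoters. SPP1, a known target of RUNX2, held 1 RUNX and 1 SOX word. The promoters of RUNX2 and SPP1 are shown with these words in capitals.
RUNX2 promoter (chr7:40106331-40106630, plus strand): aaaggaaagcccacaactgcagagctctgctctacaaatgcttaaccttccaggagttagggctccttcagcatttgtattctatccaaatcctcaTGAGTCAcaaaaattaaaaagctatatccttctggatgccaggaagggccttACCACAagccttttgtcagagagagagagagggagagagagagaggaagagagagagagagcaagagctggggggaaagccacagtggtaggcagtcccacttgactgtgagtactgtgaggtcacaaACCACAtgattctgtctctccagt
SPP1 promoter (chr8:131085285-131085584, minus strand): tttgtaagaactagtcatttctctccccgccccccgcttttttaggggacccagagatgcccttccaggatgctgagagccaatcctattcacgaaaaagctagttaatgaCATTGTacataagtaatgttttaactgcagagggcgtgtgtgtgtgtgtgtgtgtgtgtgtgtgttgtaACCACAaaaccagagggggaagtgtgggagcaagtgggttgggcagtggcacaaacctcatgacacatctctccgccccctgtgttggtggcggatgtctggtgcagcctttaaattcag

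Genes with the most similar TSS profile were those at the smallest distance over the 6 libraries on the scale of log2(fold enrichment + 1). For RUNX1 they were PLPP7 (distance 0.167), BOLA2B and SULT1A3 (0.235 each). For RUNX2 they were PCMTD1 (0.319), COL8A1 (0.34) and FAM120C (0.381). For SOX9 they were CD59 (0.0677), TCEA3 (0.111) and FAM20B (0.122). SP7 was nearest to PNMA8B (0.0146), LOC100516302 (0.0697) and TRPM5 (0.072), which like it had CTCF alone, and ACAN to ABHD12B (0.00782), EML2 (0.0291) and HES2 (0.03), which had H3K4me3 alone. ALPL was nearest to LOC110256523 (0.201), SNCB (0.357) and RNF207 (0.36), and SPP1 to KREMEN2 (0.205), POU2F2 (0.506) and LOC106504267 (0.52), which had H3K4me3 and CTCF without H3K27ac. RUNX3, with no peak at its TSS, has no such neighbours.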

How the data were processed

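ChIP-seq peak lists of 6 libraries were analysed, 2 each for H3K4me3 (antibody ab8580), H3K27ac (ab4729) and CTCF (A1133). The authors aligned the reads with bowtie2, discarded pairs that did not map uniquely as well as duplicates, and ran MACS2 in its narrow mode on every library by itself. The submitters' processing notes name Sscrofa11.1. For each peak, the deposited lists give a ratio (the fold enrichment over the control), the −log10 of the p-value and of the q-value, a score and the summit. The stated q-value threshold was not the one seen in the deposited lists, where the highest q-value was between 0.0432 and 0.0499. The lists were used as deposited, and the deposited score was not used.

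Peaks of chromosomes 1 to 18 and X were joined to RefSeq genes in python 3.11.15 with pandas 2.3.3 and numpy 2.4.6. Peaks of the 2 replicates that overlapped by 1 bp or more were merged, and a region counted as shared when it held a peak of each. The paper instead merged replicate peaks by a limit on the irreproducible discovery rate, which was not applied here. The fold enrichment of a region is that of its highest peak in each replicate, and the highest peak was taken at a TSS. Entries without a peak were set to 0, also in medians over lists. Sequences were read by coordinate from the RefSeq assembly, and motif windows were 300 bases at the summits.

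The genes named are the 8 members, from the lists those without H3K4me3 and the 3 highest and lowest (some list genes are not reported here by name, and not every list is given in full), the 3 most similar genes per member, and the 5 highest distal regions of RUNX2 and SOX9 and the highest of the others. Genes and regions named as neighbours, other high regions and the groups by CpG ratio were chosen after their values were seen. The members and lists were chosen with earlier results of these data known. The merging and counting steps were tested on simulated peaks. The lists hold no read counts, so depth per peak is unknown and no counting interval is given. Input libraries were not analysed here.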

Additional observations from a re-analysis of the deposited data

How the results depend on the processing

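Of 53 alternative values, 41 stayed within 1.5 times the reported count, including every count of H3K4me3 at the TSS, for the 8 genes and for both lists, and of H3K27ac at the TSS for the 8 genes. The H3K27ac counts of the lists were not recomputed under other settings. With a TSS distance of 5 kb, 5 genes had CTCF instead of 3, RUNX1 and SOX9 being added. At that distance 26 of 30 osteoblast and 22 of 29 cartilage genes had H3K4me3, where 21 and 20 had it within 1 kb. With any annotated transcript start, each list had 22. Some genes named as without H3K4me3 at the TSS thus had a peak within 5 kb or at another start. The counts of distal regions depended most on the window. Within 100 kb there were 2 distal H3K27ac regions around RUNX2, 2 around SOX9, 71 around all 8 genes and 48 CTCF regions, and within 500 kb there were 45, 27, 298 and 184. With a −log10 q-value of at least 5, 86 of the 135 distal regions were counted. With 1 replicate alone the distal regions were 16 to 19 around RUNX2 and 12 to 14 around SOX9, where 11 and 9 were shared. The shared count leaves out peaks of a single library and can also join several peaks into a single region. These effects were not separated. RUNX2 had 19 without replicate 2 and SOX9 14 without replicate 1. The looser CTCF core, added after the data were seen, raised the count of CTCF regions with a core from 24 to 35.

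No paired analysis was possible because the results come from no test. With 2 replicates, no depth per peak and 1 condition, small differences in fold enrichment between genes or libraries could not be resolved. Fold enrichments of different antibodies are not on a common scale. CTCF was compared with the histone marks only by position, except in the distances to similar genes. Those distances combined the fold enrichments of all 6 libraries and carry this limit. A start missing from the annotation would move a region from the start class to the internal or distal class.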

Other observations

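At the TSS of protein-coding genes with H3K4me3 in both replicates, replicate 2 exceeded replicate 1 more often where CpG was rarer. The share was 15.7% of 268 genes with a CpG ratio under 0.2, 8.97% of 959 genes from 0.2 to 0.4, 2.71% of 1623 genes from 0.4 to 0.6, and 0.917% of 10573 genes at 0.6 or more. The median H3K4me3 in replicate 1 differed between these groups too, with 33.6, 32.8, 41.4 and 54.5 in that order. Whether the share goes with the CpG ratio or with the level was not tested. RUNX2, with a ratio of 0.117 and fold enrichments of 22.6 and 28.0, is in the first group. Some of the 16 fibroblast markers, whose CpG ratios are not given here, also had the higher value in replicate 2. These were VIM (39.1 and 45.9), COL3A1 (24.6 and 36.3), FN1 (3.13 and 5.38), LUM (14.7 and 28.4) and FAP (15.2 and 16.8). The order of H3K4me3 levels between genes therefore differed between the replicates, as at the 2 H3K4me3 regions of RUNX2.

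In the window of RUNX3, a region at 105 kb, past the end of the gene, had H3K4me3 of 46.2 and 22.0 and CTCF of 27.5 and 29.7 without H3K27ac and without an annotated start. Upstream of RUNX3 there was a group of H3K27ac regions between -38.4 and -80.7 kb, of which those at -55.5 kb (13.4 and 16.5) and -64.5 kb (9.36 and 14) were highest, and the former also carried H3K4me3 (13.1 and 8.63). CTSK, the collagenase of osteoclasts that fibroblasts also express, had H3K27ac of 16.1 and 14.6 at the TSS with no H3K4me3 peak.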
